A study of Mus musculus with 15 samples.

Results

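The 8 genes described here, Cd36, Slc27a2, Slc27a4, Fabp1, Fabp2, Fabp4, Lpl and Vldlr, encode proteins that deliver fatty acids to cells, carry them across the plasma membrane or bind them in the cytosol. They were chosen by symbol for these roles out of 20325 genes measured in mouse liver, and all 8 were among the 12377 genes that passed the filter on low counts. Liver RNA came from 15 male mice of C57BL/6J, an inbred laboratory strain, dissected when 19 weeks old, and no engineered allele is given for any. The mice formed 5 groups of 3. Those called germ-free (GF) had no microorganisms, conventionally raised (ConvR) mice had acquired a microbiota from birth, and conventionalized (ConvD) mice were germ-free until a single gavage, at 15 weeks, of cecal contents from chow-fed ConvR donors, 4 weeks before dissection. After 3 weeks of age, GF and ConvR mice ate either breeder chow, with 23.7% of its energy as fat, or a diet rich in fat and sucrose (HF/HS), with 44.6% of its energy as fat, and ConvD mice ate chow. In chow 53.2% of the energy was carbohydrate and 23.1% protein, in HF/HS 40.6% and 14.8%, and both diets were irradiated and autoclaved. Mice were caged with others of the same colonization status and diet, and GF and ConvR mice lived in separate isolators, so effects of cage and isolator cannot be told apart from those of the group. The labels do not say which ConvD mice shared a donor.

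Long-chain fatty acids reach the liver bound to albumin and inside lipoproteins. Lipoprotein lipase frees them from lipoprotein triglyceride at the vessel wall, CD36 and the fatty acid transport proteins of the SLC27 family promote their entry into cells, and fatty acid binding proteins (FABPs) carry them through the cytosol. Several genes of this group, Fabp1 and Cd36 among them, are textbook targets of nuclear receptors of the PPAR family, which sense fatty acids. The PPARs bind DNA together with RXR at paired copies of the core site AGGTCA, set 1 base apart.

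Stretches before the RefSeq transcription starts of Fabp1, Slc27a2 and Cd36 are printed here because these 3 were the members whose promoter windows held that core site and because all 3 were called higher on HF/HS in ConvR mice. Fabp2 and Vldlr were also called higher in that comparison, and their windows held no core site. Nor did that of Slc27a4, which was not called. The sequences are from RefSeq (GRCm38.p6), 5′ to 3′ on the gene's strand, and positions are counted upstream from the RefSeq start. The Fabp1 stretch is chr6:71199779-71199826 on the plus strand, from 100 to 53 bases upstream, where GENCODE vM21 has no transcript. The Slc27a2 stretch is chr2:126552794-126552823 on the plus strand, from 230 to 201 bases upstream, where GENCODE places a longer first exon of Slc27a2 and, on the other strand, the long noncoding RNA Gm26697. The Cd36 stretch is chr5:17836087-17836146 on the minus strand, from 250 to 191 bases upstream, inside an intron of longer Cd36 transcripts in GENCODE. Capitals mark the core site, read on the opposite strand, and in Fabp1 the repeat it belongs to.
Fabp1: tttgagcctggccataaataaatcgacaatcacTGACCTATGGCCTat
Slc27a2: accacgccttTGACCTtttcaacgtgggct
Cd36: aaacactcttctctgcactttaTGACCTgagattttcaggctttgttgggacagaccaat

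Windows from 250 bases before to 50 bases after the start were at hand for 6 of the 8 members, 7 windows in all, among 32851 windows of all genes. Both strands were searched. The core site AGGTCA was in 16.3% of all windows, and 3 members had it. The exact pair AGGTCANAGGTCA was in 0.0396% of windows and in no member's. With 1 free base in each copy, AGGNCANAGGNCA was in 0.381% of windows and, of the members, in that of Fabp1, from 67 to 55 bases upstream on the opposite strand, where it overlaps one of that window's core sites. The TATA box, TATAAA, was in 13.6% of windows and, of the members, in that of Fabp1, from 30 to 25 bases upstream. These letters were chosen with the windows at hand, and a match is a description of the sequence only.

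Levels of different genes were compared per length, in TPM, RSEM's unit scaled by length and depth. Over the 15 livers Fabp1, which encodes the FABP of hepatocytes, had a median of 13637 TPM, which was above that of 99.92% of the genes tested. Slc27a2, a fatty acid transport protein that also activates very long chain fatty acids and bile acids, had a median of 871.3 TPM. Fabp2, best known as the FABP of enterocytes, followed at 195 TPM, above 95.42% of genes. Cd36, a membrane receptor for long-chain fatty acids and oxidized lipoproteins, was at 33.4 TPM, and Fabp4, the FABP of adipocytes, capillary endothelium and macrophages, at 18.6 TPM. Slc27a4, a transport protein prominent in the intestine, was at 13.2 TPM and Lpl, the gene of lipoprotein lipase, at 12.6 TPM. Vldlr, a receptor that takes up triglyceride-rich lipoproteins and is weakly expressed in liver, was lowest, at 0.31 TPM, above 4.298% of genes.

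**Figure D1:**
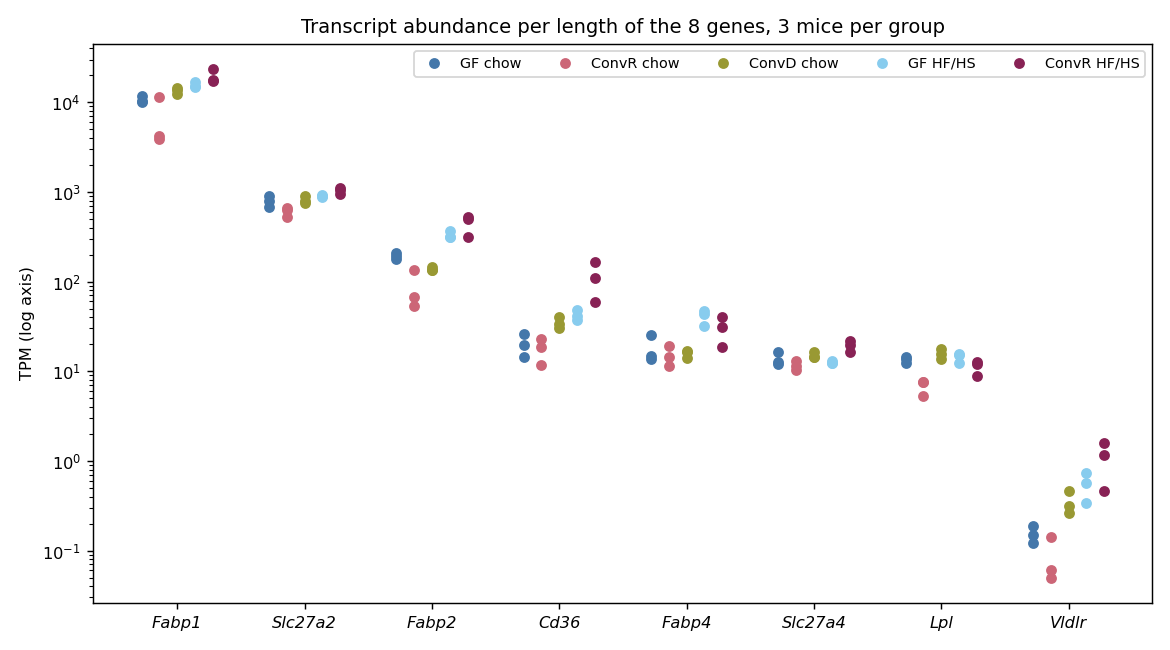
Deposited TPM of each of the 8 genes in the 15 livers on a log axis, with points for mice and colours for groups. Fabp1 and Slc27a2 lay highest and Vldlr lowest, and between the lowest and the highest mouse Vldlr ran from 0.05 to 1.58 TPM and Slc27a2 from 527.52 to 1114 TPM.

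Libraries held 14737578 to 21794811 estimated read counts. Comparisons within a gene used CPM, counts scaled to the TMM-adjusted library total, given below for each mouse and as mean ± SD with n = 3. A call means that edgeR's two-sided quasi-likelihood test gave a p below 0.05 after Benjamini-Hochberg adjustment over all genes tested, and the ± of a log2 fold change is its standard error. ConvR chow mice 1 and 2 stood apart: Saa2, an acute phase gene, was at 9887 and 12793 CPM in them, at 695 CPM in ConvR chow mouse 3 and at 4.25 to 53.8 CPM in the other 12 livers. Where p-values are given without both of them, the group holds 1 mouse, which is assumed to vary like the mice of the other groups. Fos, an immediate early gene, was at 129, 28.9 and 5.95 CPM in the GF chow mice and at most 2.91 CPM elsewhere. The rank correlation of expression with gene length within a library, relative to the mean of all libraries, was -0.451 to 0.0581 in GF and ConvR chow livers and 0.104 to 0.38 in the other 9. Hepatocyte markers were high in every liver, with 6 of 6 genes present. In whole liver, fewer cells of a type and less RNA per cell cannot be told apart.

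HF/HS feeding was the condition under which most members were called. In ConvR mice 5 of the 8 members were called higher on HF/HS than on chow and none lower, beside 14.6% of all genes called in that comparison. The 5 were Cd36, Slc27a2, Fabp1, Fabp2 and Vldlr, and the median log2 fold change of the 8 was 0.89, beside -0.02 for all genes. In GF mice 3 of 8 were called higher on HF/HS, Cd36, Fabp4 and Vldlr, beside 9.55% of all genes, with a median of 0.60. Cd36 and Vldlr were thus called under both diet comparisons, which share no mice. The difference between the diet responses of ConvR and GF mice, the interaction of diet with colonization, was called for no member, and for 0% of all genes. At an unadjusted p below 0.05 that interaction held 4 members and 1573 genes, 12.7% of all, and the DESeq2 Wald test called 109 genes, 0.881% of all, of which Fabp2 was the single member.

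Fewer members were called between colonization states. On chow, 2 of 8, Fabp2 and Lpl, were called lower in ConvR than in GF mice, beside 4.72% of all genes. None of the 8 was called in ConvD against GF mice on chow, beside 5.59% of all genes, and 3 members passed an unadjusted p below 0.05, as did 24.3% of all genes. Lpl alone of the 8 was called in ConvD against ConvR mice on chow, where it was higher, beside 5.5% of all genes. On HF/HS no member was called in ConvR against GF mice, beside 1.62% of all genes, and 4 members passed an unadjusted p below 0.05, as did 15.2% of all genes. The DESeq2 Wald test called 0 members and 9.36% of all genes in ConvD against GF mice on chow. In ConvR against GF mice on HF/HS it called 3 members, Cd36, Lpl and Slc27a4, and 4.09% of all genes. Both the ConvR chow and the GF chow mice enter 3 of these 6 comparisons between groups, so that the comparisons are not independent of each other.

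**Figure D2:**
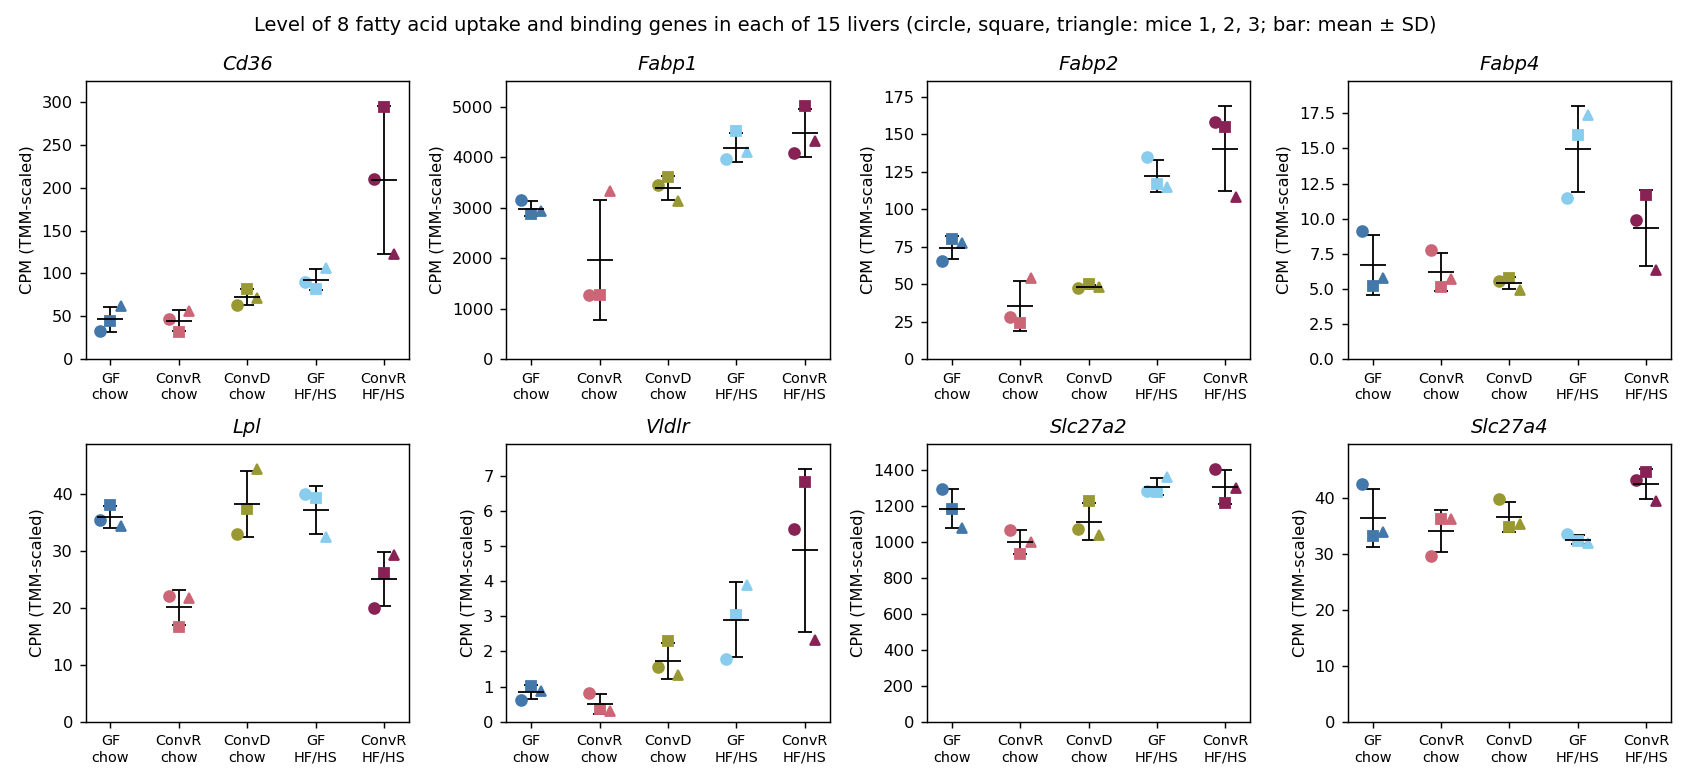
CPM of each of the 8 genes in every mouse, 1 panel per gene with its own axis from 0. Points are mice and bars the mean and SD of 3 mice in each of the 5 groups. Cd36, Fabp2 and Vldlr were highest in mean in ConvR HF/HS mice, and the single ConvR chow mouse far above the others for Fabp1, at 3338 CPM, is mouse 3.

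Cd36 had the largest fold change of the 3 membrane transporters. It was at 32.4, 44.7 and 62.0 CPM in GF chow mice, at 46.6, 32.1 and 56.1 in ConvR chow mice and at 63.6, 82.1 and 70.9 in ConvD chow mice. On HF/HS it was at 90.3, 82.0 and 105.8 CPM in GF mice and at 209.7, 294.7 and 122.5 in ConvR mice. Every HF/HS liver lay above every GF and ConvR chow liver, and every ConvR HF/HS liver above every GF HF/HS liver. HF/HS raised Cd36 4.65-fold in ConvR mice, by 2.22 ± 0.30 on the log2 scale (edgeR adjusted p = 0.0004955). In GF mice it rose 1.99-fold, by 1.00 ± 0.29 (edgeR adjusted p = 0.04513), and this call was near the threshold: leaving out GF chow mouse 1 or 2, or any of the 3 GF HF/HS mice, gave adjusted p from 0.08536 to 0.1405, and it was called in 5 of 15 alternatives. The responses in ConvR and GF mice differed by 1.22 ± 0.41 in log2 units, which was not called (edgeR adjusted p = 0.27).

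On the same HF/HS diet, mean Cd36 was 209 ± 86.1 CPM (SD, n = 3) in ConvR and 92.7 ± 12.1 CPM in GF mice. This 2.25-fold difference missed the call (edgeR adjusted p = 0.05417), with a 95% interval of 0.56 to 1.79 on the log2 scale. It passed with the DESeq2 Wald test (adjusted p = 0.002436) and without ConvR HF/HS mouse 3, the lowest of its group (edgeR adjusted p = 0.01091). On chow, the ConvD range lay just above that of GF mice, by 0.64 on the log2 scale, and was not called (edgeR adjusted p = 0.1928). ConvR and GF chow mice overlapped.

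Slc27a2 varied little in CPM between the livers. It was at 1293, 1182 and 1076 CPM in GF chow mice, at 1063, 933 and 996 in ConvR chow mice and at 1071, 1226 and 1035 in ConvD chow mice. On HF/HS the GF mice had 1282, 1278 and 1358 CPM and the ConvR mice 1403, 1214 and 1296. Between the lowest and the highest of the 15 livers it changed 1.5-fold. The ConvR chow and ConvR HF/HS ranges were apart, and Slc27a2 rose on HF/HS in ConvR mice 1.31-fold, by 0.39 ± 0.11 (edgeR adjusted p = 0.03154). The call was lost with ConvR chow mouse 1 or 2, or with ConvR HF/HS mouse 1 or 3, left out, at adjusted p from 0.0501 to 0.11, while the log2 fold change stayed between 0.33 and 0.43. In GF mice the diet difference was 0.14 and was not called (edgeR adjusted p = 0.4475). The difference between ConvR and GF mice on HF/HS was -0.002, with a 95% interval of -0.24 to 0.24.

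Slc27a4 was called in no comparison. It was at 42.4, 33.1 and 33.8 CPM in GF chow mice, at 29.6, 36.2 and 36.1 in ConvR chow mice and at 39.7, 34.7 and 35.3 in ConvD chow mice. GF HF/HS mice had 33.5, 32.2 and 31.8 CPM and ConvR HF/HS mice 43.2, 44.6 and 39.4. The ConvR HF/HS livers lay above those of ConvR chow mice, by 0.32 ± 0.11 on the log2 scale (edgeR adjusted p = 0.05889), and above those of GF HF/HS mice, by 0.38 ± 0.11 (edgeR adjusted p = 0.08867). With no normalization factors both differences passed, at 0.52 and 0.56 (edgeR adjusted p = 0.005268 and 0.01429), since that scaling raises the ConvR HF/HS libraries against the rest. In GF mice the diet difference had the other sign, -0.16, and was not called (edgeR adjusted p = 0.3563).

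Fabp1, the most abundant member, was low in 2 livers of the 15. It was at 3155, 2870 and 2927 CPM in GF chow mice and at 3441, 3609 and 3133 in ConvD chow mice. In ConvR chow mice it was at 1278 and 1263 CPM in mice 1 and 2 and at 3338 CPM in mouse 3. The 2 low livers were those with Saa2 at 9887 and 12793 CPM, and mouse 3 lay within the ConvD range. HF/HS livers were the highest, with 3958, 4523 and 4100 CPM in GF and 4094, 5011 and 4319 in ConvR mice, all above every chow liver.

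The diet difference of Fabp1 in ConvR mice was 2.28-fold, or 1.19 ± 0.29 on the log2 scale (edgeR adjusted p = 0.01337). Without ConvR chow mice 1 and 2, which left 1 mouse in that group, it was 0.42. In GF mice it was 0.49 in the fit of all 15 livers (edgeR adjusted p = 0.2909). This GF difference was called in 1 of 15 alternatives, the fit without ConvR chow mice 1 and 2. The diet difference in ConvR mice was 0.96 and 0.95 with ConvR chow mouse 1 or mouse 2 alone left out. Its call was then lost (edgeR adjusted p = 0.05903 and 0.05767). On chow, ConvR mice differed from GF mice by -0.61 ± 0.28, which was not called (edgeR adjusted p = 0.214). Without mouse 3 this was -1.23 (edgeR adjusted p = 4.443e-05), and without mice 1 and 2 it was 0.16 (edgeR adjusted p = 0.7708). The summed CPM of 6 hepatocyte markers was 45970 to 82360 in ConvR chow mice and 79020 to 94820 in GF chow mice. It was 114000 to 120600 in GF HF/HS and 78930 to 86970 in ConvR HF/HS mice, so between these last groups, which overlapped in Fabp1, it did not overlap. Alb made up most of this sum, with means of 96460 CPM in GF HF/HS and 67460 CPM in ConvR HF/HS mice. Mean Ttr, another of the 6, was 4925 and 4901 CPM. Of the 6 markers 0 were called between these groups, beside 1.62% of all genes, with a median log2 fold change of -0.50. The part of Saa2 or of the hepatocyte markers in the Fabp1 result was not tested.

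**Figure D3:**
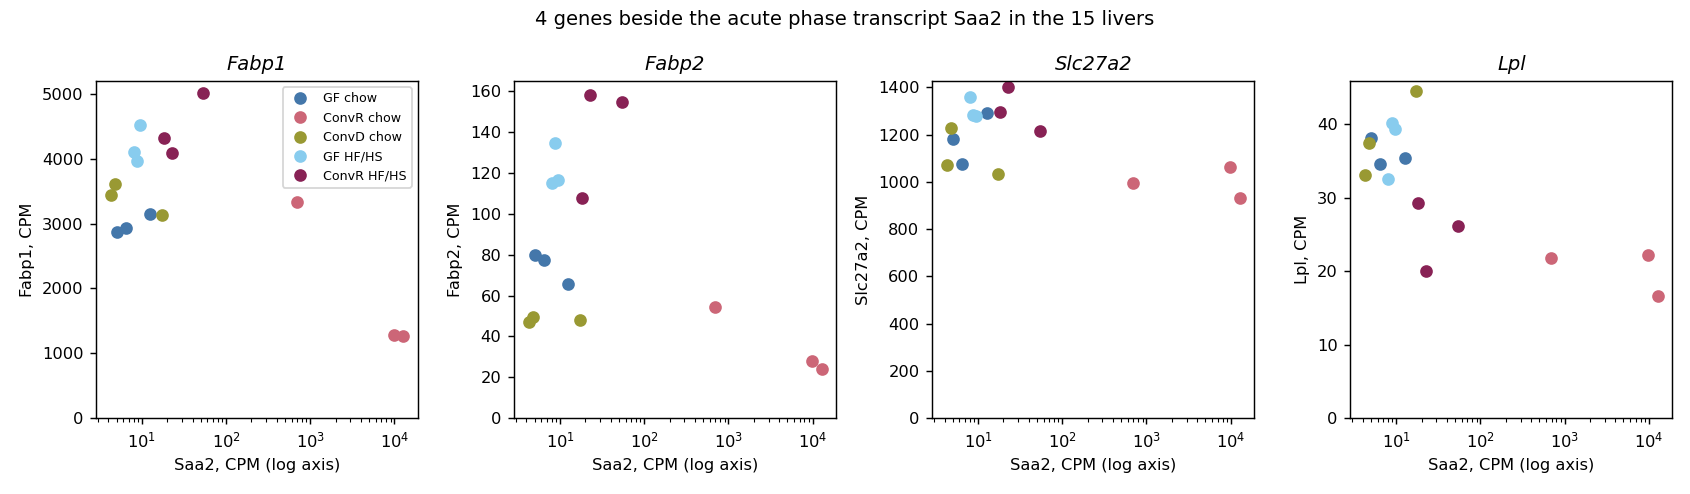
CPM of Fabp1, Fabp2, Slc27a2 and Lpl (vertical axes, from 0) against CPM of Saa2 (horizontal log axis) in the 15 livers, with colours for groups. ConvR chow mice 1 and 2, at 9887 and 12793 CPM of Saa2, had the 2 lowest Fabp1 and the 2 lowest Fabp2 values. Their Cd36 values, not drawn, were 46.6 and 32.1 CPM, beside 32.4 to 62.0 CPM in GF chow mice.

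Fabp2 had the largest called fold change of the 3 binding proteins. It was at 65.5, 79.9 and 77.6 CPM in GF chow mice, at 27.8, 24.0 and 54.3 in ConvR chow mice and at 47.2, 49.7 and 47.8 in ConvD chow mice. On HF/HS it was at 134.6, 116.7 and 115.0 CPM in GF and at 158.3, 154.7 and 107.8 in ConvR mice. The HF/HS livers were above every chow liver, and GF chow livers were above all ConvR and ConvD chow livers. In ConvR mice Fabp2 rose 3.97-fold on HF/HS, by 1.99 ± 0.24 (edgeR adjusted p = 0.0002662), and by 1.37 without ConvR chow mice 1 and 2, which leaves 1 mouse in that group and takes its spread from the other groups (edgeR adjusted p = 0.008563). In GF mice it was 1.64-fold higher on HF/HS, by 0.72 ± 0.23, which missed the call (edgeR adjusted p = 0.06455) but passed with the DESeq2 Wald test (adjusted p = 0.02539). The interaction of 1.27 ± 0.33 was not called by edgeR (adjusted p = 0.2042) and was called by the DESeq2 Wald test (adjusted p = 0.01969). Without ConvR chow mice 1 and 2 the interaction was 0.65 (edgeR adjusted p = 0.6836).

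On chow, Fabp2 was 2.10-fold lower in ConvR than in GF mice, at -1.07 ± 0.24 (edgeR adjusted p = 0.0273). That call was lost without ConvR chow mouse 1 or 2, at edgeR adjusted p of 0.1147 and 0.1188, and the difference was -0.46 without both (edgeR adjusted p = 0.5438). ConvD mice, none of which had raised Saa2, were 1.54-fold lower than GF mice with ranges apart, at -0.62 (edgeR adjusted p = 0.119). This ConvD difference was called in 1 of 15 alternatives, the fit without ConvR chow mice 1 and 2. The 6 enterocyte markers summed to 0.145 to 1.03 CPM in GF chow, 0.181 to 0.275 CPM in ConvR chow and 0.215 to 0.333 CPM in ConvD chow livers, with Cdx1 and Cdx2 at 0 in all 15. Vil1, the single one of them that was tested, differed from GF chow mice by -1.88 in ConvR and -1.79 in ConvD mice on the log2 scale, neither called. The part of enterocyte RNA in the Fabp2 values was not tested.

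Fabp4 was the member called for diet in GF mice but not in ConvR mice, a difference that was itself not called (interaction -0.58, edgeR adjusted p = 0.5137). It was at 9.15, 5.20 and 5.80 CPM in GF chow mice, at 7.75, 5.12 and 5.73 in ConvR chow mice and at 5.59, 5.74 and 4.94 in ConvD chow mice. HF/HS livers had 11.5, 16.0 and 17.3 CPM in GF and 9.89, 11.7 and 6.37 in ConvR mice. All 3 GF HF/HS livers were above every chow liver, while ConvR HF/HS mouse 3 lay within the chow range. In GF mice Fabp4 rose 2.24-fold on HF/HS, by 1.16 ± 0.25 (edgeR adjusted p = 0.01356), and without GF HF/HS mouse 2 or 3 the adjusted p was 0.05212 and 0.05918. In ConvR mice the difference was 0.58 and was not called (edgeR adjusted p = 0.1368). It passed without ConvR HF/HS mouse 3 (edgeR adjusted p = 0.04616). ConvR differed from GF mice on HF/HS by -0.68 ± 0.24, which was not called (edgeR adjusted p = 0.1668).

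Among other cell types in which Fabp4 is known, the summed endothelial markers were higher on HF/HS. Of the 5 adipocyte markers 1, Cfd, was tested, and it was called higher on HF/HS. Endothelial markers, 8 of 8 measured, summed to 179.3 to 241.7 CPM in chow livers and to 247.3 to 293.2 CPM in HF/HS livers. Of the 8, 5 were called higher on HF/HS in GF mice, beside 9.55% of all genes, and 4 in ConvR mice, beside 14.6%. The 8 had median log2 fold changes of 0.47 and 0.42, beside -0.01 and -0.02 for all genes. Clec4g, one of the 8, was not called, with means of 51.3 CPM on chow and 51.2 on HF/HS in GF mice. In ConvR mice its means were 56.8 and 54.4 CPM. Cd36 and Lpl are also known in endothelium. The summed adipocyte markers were 0.06 to 1.63 CPM in chow livers and 2.46 to 11.6 CPM in HF/HS livers. This rise came through Cfd, called by edgeR at 3.56 in GF and 3.10 in ConvR mice on the log2 scale, while Plin1 was at 0 in all 15 livers. Adipoq, Lep and Retn were at no more than 0.165 CPM in any liver, and mean Adipoq was not higher on HF/HS. The summed macrophage markers, 7 of 8 measured, overlapped between the diets in both GF and ConvR mice. One of the 7, Cd68, was called higher on HF/HS in GF mice, at 8.60, 8.15 and 9.78 CPM against 3.65, 5.77 and 5.90 CPM on chow. The part of endothelial cells, adipocytes and macrophages in the diet differences of Fabp4, Cd36 and Lpl was not tested.

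Lpl was called in 2 comparisons of colonization and in neither comparison of diet. It was at 35.4, 38.2 and 34.5 CPM in GF chow mice, at 22.2, 16.6 and 21.8 in ConvR chow mice and at 33.1, 37.4 and 44.5 in ConvD chow mice. On HF/HS it was at 40.1, 39.4 and 32.5 CPM in GF and at 20.0, 26.2 and 29.3 in ConvR mice. Both ConvR groups lay below all other livers, with the highest ConvR liver at 29.3 CPM and the lowest of the rest at 32.5. On chow Lpl was 1.78-fold lower in ConvR than in GF mice, at -0.84 ± 0.15 (edgeR adjusted p = 0.01473). It was 1.90-fold higher in ConvD than in ConvR mice, at 0.92 ± 0.15 (edgeR adjusted p = 0.00931). ConvD and GF chow mice differed by 0.09 (edgeR adjusted p = 0.7556).

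On HF/HS the difference between ConvR and GF mice in Lpl was -0.57 ± 0.15, which missed the call (edgeR adjusted p = 0.07341) and passed with the DESeq2 Wald test (adjusted p = 0.02368). The diet differences were 0.05 in GF mice (edgeR adjusted p = 0.8624) and 0.32 in ConvR mice (edgeR adjusted p = 0.186). All 3 ConvR chow mice, low in Lpl, had Saa2 above every other liver, and its part in the Lpl result was not tested. Without mice 1 and 2 the ConvR difference from GF chow mice was -0.73, of nearly the same size, but was not called with 1 mouse in the group (edgeR adjusted p = 0.4312). Without mouse 2 alone it was -0.71 (edgeR adjusted p = 0.09086), and the ConvD difference from ConvR mice was 0.80 (edgeR adjusted p = 0.05118). Without ConvD mouse 2 the latter was 0.94 (edgeR adjusted p = 0.05438).

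Vldlr had the largest fold change of the 8 genes at the lowest level. It was at 0.619, 1.03 and 0.870 CPM in GF chow mice, at 0.825, 0.362 and 0.302 in ConvR chow mice and at 1.56, 2.30 and 1.33 in ConvD chow mice. On HF/HS it was at 1.77, 3.05 and 3.90 CPM in GF and at 5.49, 6.83 and 2.32 in ConvR mice. In estimated reads the range was from 5 to 18 in GF and ConvR chow livers, from 24 to 51 in ConvD livers and from 35 to 138 in HF/HS livers. ConvD and HF/HS livers were all above the GF and ConvR chow livers. HF/HS raised Vldlr 9.56-fold in ConvR mice, by 3.26 ± 0.47 (edgeR adjusted p = 0.0008352), and 3.39-fold in GF mice, by 1.76 ± 0.45 (edgeR adjusted p = 0.02867). The GF call was lost without GF chow mouse 1 or 3, or GF HF/HS mouse 2 or 3, at adjusted p from 0.05777 to 0.1069, and with the trend on gene length removed, at 1.62 (edgeR adjusted p = 0.05926). On log2(TPM + 1) the GF difference shrank to 0.42 (limma adjusted p = 0.1297). Colonization of GF mice gave a 2.05-fold difference in ConvD livers, which was not called (edgeR adjusted p = 0.1946), and ConvD livers were 3.44-fold above ConvR chow livers (edgeR adjusted p = 0.05707).

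**Figure D4:**
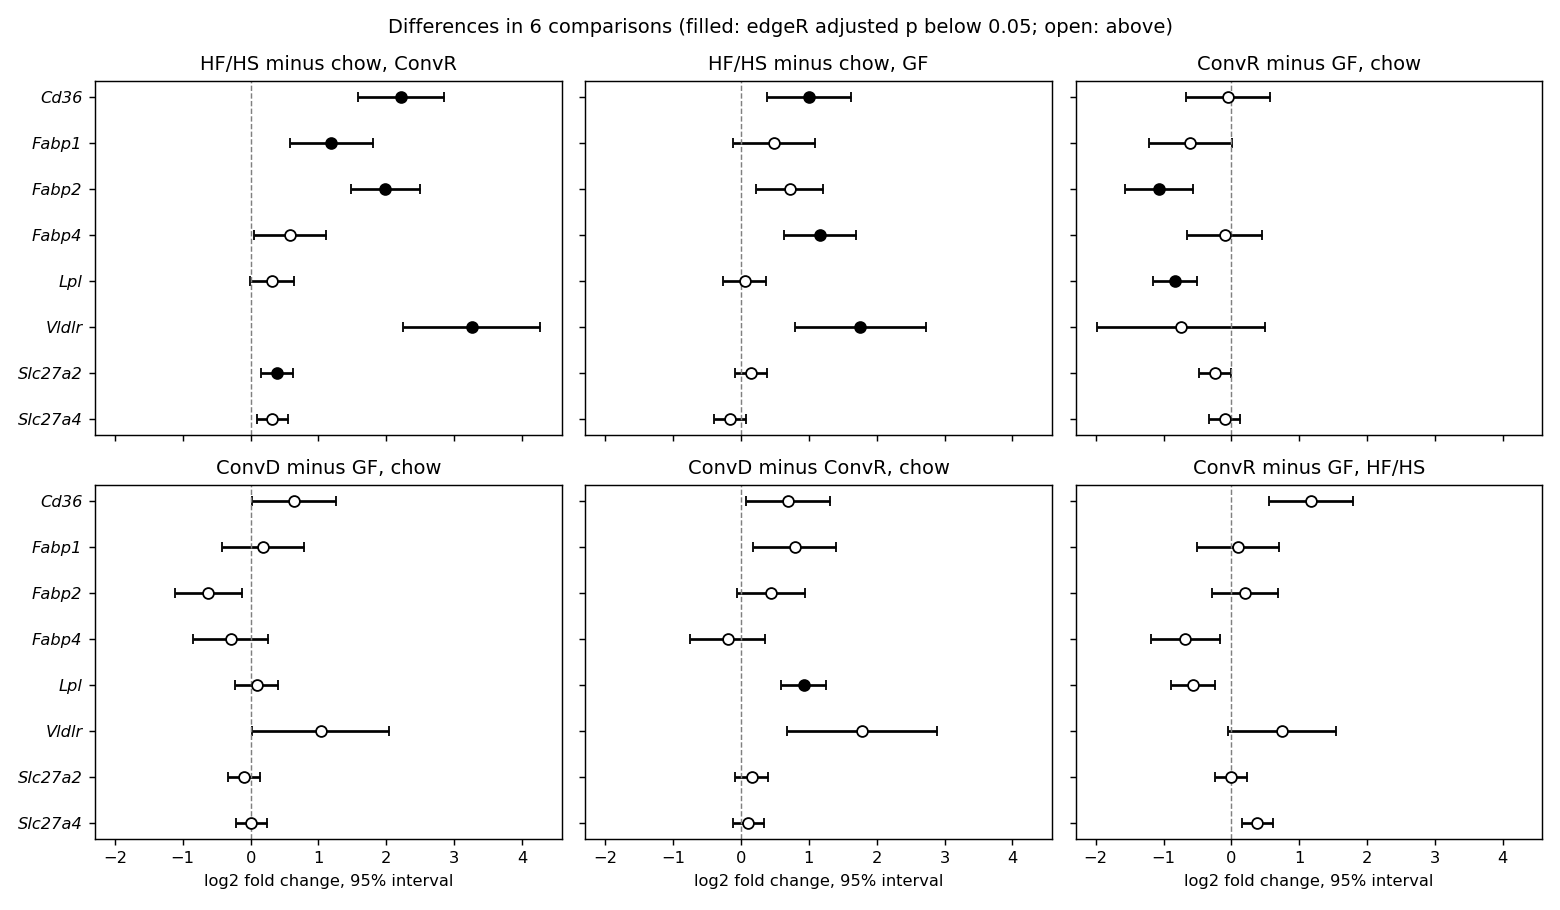
Log2 fold changes of the 8 genes in 6 comparisons between groups, with 95% intervals as bars and filled points for genes called by edgeR. The called points are 5 in the diet comparison of ConvR mice, 3 in that of GF mice, 2 in ConvR against GF mice on chow and 1 in ConvD against ConvR mice on chow.

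In order of mean CPM, ConvR HF/HS mice ranked highest for Cd36, Fabp1, Fabp2, Vldlr and Slc27a4, GF HF/HS mice for Fabp4 and Slc27a2, and ConvD chow mice for Lpl. For Slc27a2 the means of GF and ConvR HF/HS mice were nearly equal, at 1306 and 1304 CPM. In mean TPM their order was the other way, at 898 and 1036 TPM. ConvR chow mice ranked lowest for Cd36, Fabp1, Fabp2, Lpl, Vldlr and Slc27a2. Most neighbours in these orders overlapped. Those that did not were ConvR HF/HS above GF HF/HS and ConvD above GF chow for Cd36, and GF HF/HS above ConvD chow for Fabp1. Fabp2 had GF HF/HS above GF chow and GF chow above ConvD chow. Lpl had GF chow above ConvR HF/HS, and Vldlr had ConvD above GF chow. For Fabp4, Slc27a2 and Slc27a4 all 4 pairs of neighbours overlapped. Neighbours were set by sorting each gene's own means, and the share of such pairs apart over all genes was not counted. The pairs apart are thus a description of these genes only.

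Of 17 other genes of fatty acid transport, binding and activation, 13 were tested. On HF/HS in ConvR mice 2 were called higher and 1 lower by edgeR, beside 14.6% of all genes, with a median of -0.08. Acsl5, an acyl-CoA synthetase, rose by 0.60 ± 0.17 in ConvR mice (edgeR adjusted p = 0.03396) and by 0.60 ± 0.17 in GF mice (edgeR adjusted p = 0.04439). In GF mice it was the list's single call, beside 9.55% of all genes. Got2, a mitochondrial aminotransferase also described as a membrane fatty acid binding protein, rose by 0.37 ± 0.11 in ConvR mice (edgeR adjusted p = 0.03749). Fabp5, a binding protein of skin and immune cells, fell by 1.77 ± 0.49 on the log2 scale in ConvR mice (edgeR adjusted p = 0.02806). None of the 13 was called in ConvR or ConvD against GF mice on chow or in ConvR against GF mice on HF/HS. In ConvD against ConvR mice Acsl1 was higher by 0.77 ± 0.17 (edgeR adjusted p = 0.0244) and Fabp5 lower, at -1.99 ± 0.50 (edgeR adjusted p = 0.03686). In the ConvR chow mice Fabp5 was at 65.5, 77.4 and 20.9 CPM and Acsl1 at 739, 678 and 1061 CPM, so that within this group both divided as Saa2 did. Fabp5 was also at 45.2, 51.1 and 22.1 CPM in GF HF/HS mice, where Saa2 was at 8.81, 9.56 and 8.03 CPM.

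Among genes that control lipoprotein lipase or take up lipoproteins, 20 of 20 were tested. On HF/HS 3 were called higher and 2 lower in ConvR mice, beside 14.6% of all genes, and 1 each way in GF mice, beside 9.55%. Apoc2, the cofactor that activates lipoprotein lipase, was at 113.8, 121.5 and 126.5 CPM in GF chow and at 116.6, 130.1 and 103.6 CPM in ConvR chow mice. On HF/HS it reached 221.1, 205.9 and 198.6 CPM in GF and 366.6, 402.3 and 284.4 CPM in ConvR mice, with no overlap between these 2 groups or with chow. Apoc2 rose by 1.59 ± 0.13 in ConvR mice (edgeR adjusted p = 1.371e-05) and by 0.79 ± 0.12 in GF mice (edgeR adjusted p = 0.0038). It was the one gene of this list called in ConvR against GF mice on HF/HS, at 0.75 ± 0.12 (edgeR adjusted p = 0.008655).

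Gm6484, which RefSeq lists under the name Angptl8, encodes a feeding-induced inhibitor of lipoprotein lipase. It was at 25.2, 78.2 and 94.6 CPM in GF chow mice and at 38.2, 41.7 and 43.8 CPM in ConvR chow mice. In ConvD mice it was at 10.7, 10.4 and 8.32 CPM, and on HF/HS at 18.2, 15.4 and 29.4 CPM in GF and 11.8, 11.8 and 12.8 CPM in ConvR mice. It fell by 1.77 ± 0.35 on the log2 scale on HF/HS in ConvR mice (edgeR adjusted p = 0.004967) and by 1.66 ± 0.35 in GF mice (edgeR adjusted p = 0.01247). In ConvD mice it was lower than in GF chow mice, at -2.75 ± 0.37 (edgeR adjusted p = 0.003872), and lower than in ConvR chow mice, at -2.07 ± 0.36 (edgeR adjusted p = 0.01086). Gpihbp1, which anchors lipoprotein lipase to capillaries, and Angptl4, another lipase inhibitor, were called in no comparison. Lipg, endothelial lipase, rose on HF/HS in ConvR mice by 1.56 ± 0.36 (edgeR adjusted p = 0.0109).

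Lsr, a lipoprotein receptor, was at 203, 261 and 141 CPM in ConvR chow mice and at 123.9, 121.3 and 137.0 CPM in GF chow mice. It was called higher in ConvR than in GF mice on chow, at 0.66 ± 0.16 (edgeR adjusted p = 0.03484), and lower on HF/HS than on chow in ConvR mice, at -0.72 ± 0.16 (edgeR adjusted p = 0.008673). ConvD mice were lower than ConvR mice in Lsr, at -0.62 ± 0.16 (edgeR adjusted p = 0.03944). The high Lsr values were again those of ConvR chow mice 1 and 2.

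Of 18 regulators of these genes, all tested, 3 were called higher and 1 lower on HF/HS in ConvR mice, beside 14.6% of all genes. In GF mice 1 was called higher and 0 lower, beside 9.55% of all genes. Ppara, the PPAR of hepatocytes, was called higher on HF/HS in both ConvR mice, at 0.83 ± 0.16 (edgeR adjusted p = 0.003528), and GF mice, at 0.94 ± 0.16 (edgeR adjusted p = 0.004806). It was at 143.5 to 216.1 CPM in GF chow and 166.4 to 223.3 CPM in ConvR chow livers and at 330.3 to 383.1 and 293.7 to 411.1 CPM on HF/HS. In ConvR mice Nfe2l2, a regulator of antioxidant genes, rose by 0.42 ± 0.09 (edgeR adjusted p = 0.009257) and Foxo1, a factor restrained by insulin, by 0.59 ± 0.16 (edgeR adjusted p = 0.02642). Nr1h4, the bile acid receptor FXR, fell by 0.44 ± 0.13 on the log2 scale (edgeR adjusted p = 0.03134). Pparg, the PPAR of adipocytes, was called in no comparison, and no regulator was called in a comparison between colonization states.

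The genes whose log2 CPM was most like each member's were sought among the 10044 genes whose mean reached 2 CPM. The measure was Pearson's r over the 15 livers, which share the group structure and, in ConvR chow, the 2 livers that stood apart. Cd36 was most like Slc39a9, Vnn1 and Xpot, with r of 0.966, 0.961 and 0.948. Vnn1 encodes pantetheinase. For Vldlr, Slc17a4 and Cpt1a had r of 0.938 and 0.938, and Cpt1a encodes the carnitine palmitoyltransferase of liver mitochondria. Fabp1 was most like Sdha, Mme and Esd, with r of 0.974, 0.957 and 0.955, and Fabp2 most like Bdh1, Eepd1 and Sgk2, with r of 0.940, 0.938 and 0.934. Bdh1 encodes a ketone body dehydrogenase.

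Fabp4 was most like Arhgap10, Tmem132e and Clec14a, with r of 0.890, 0.867 and 0.851, and Clec14a is known as an endothelial gene. Lpl was most like Kat2b, Mug2 and Cyp2d22, with r of 0.913, 0.876 and 0.860. Slc27a2 was most like Copa, Osbpl8 and Pnpla7, with r of 0.905, 0.895 and 0.888. Slc27a4 was most like Smarca4, Mmadhc and Rnpepl1, with r of 0.887, 0.879 and 0.866.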

How the data were processed

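Polyadenylated RNA of 15 mouse livers was sequenced from stranded libraries, per the labels' protocols. Per the submitters' processing notes, Bowtie2, RSEM 1.2.23 and the mouse build mm9 were used. The authors deposited, per gene, expected counts estimated by RSEM, which are fractional and not scaled between libraries. The authors also deposited TPM and FPKM, in which RSEM had divided by gene length and by the library's total. FPKM was not used here. Coordinates are printed for RefSeq promoter windows only, which, like the GENCODE vM21 annotation set beside them, are of another build (GRCm38) than the counts.

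Groups came from the sample titles. Expected counts were rounded to whole numbers and fitted with edgeR 4.0.16 (quasi-likelihood F test) in R 4.3.3, with filterByExpr at a minimum count of 10, TMM scaling and 5 group means, leaving 10 residual degrees of freedom. The common biological coefficient of variation was 0.149. Adjusted p came from Benjamini-Hochberg over 12377 genes, and the standard error of a log2 fold change is its size divided by the root of F. For ranks of likeness, log2 CPM had a prior count of 2. The script was tested on simulated data. Totals of 14737578 to 21794811 estimated counts per library limit the precision of Vldlr most. Mice were treated as separate replicates, and no 2 libraries held identical values.

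The members and gene lists were chosen with earlier results of these data known. Named genes were the 8 members in every comparison, up to 4 called genes per list and comparison, the 3 genes most like each member, and Saa2 and Fos. A gene that this rule took is not reported here. Gpihbp1, Angptl4 and Pparg were named after their values were seen, as were list genes followed where they were not called.

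Alternatives were DESeq2 size factors, no normalization factors, no filter, the DESeq2 1.42.0 Wald test, limma-trend (limma 3.58.1) on log2(TPM + 1), a replicate block, the groups compared fitted alone, and removal of a lowess trend (span 0.5) on gene length. ConvR chow mice 1 and 2 were also left out together, and each library in turn.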

Additional observations from a re-analysis of the deposited data

How the results depend on the processing

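Of 888 values of members recomputed over 24 alternatives, 859 kept their direction, and the 29 that did not were not called. Cd36, Fabp2 and Vldlr kept their diet call in ConvR mice in 15 of 15 alternatives. Counts of members called follow, each with the share of all genes called. With no normalization factors they were 2 (8.81%) in ConvD against ConvR chow, 2 (6.18%) in ConvR against GF HF/HS and 8 (26.2%) in the diet comparison of ConvR mice. With no filter 1 (1.21%) was called in ConvR against GF HF/HS. The DESeq2 Wald test called 3 (9.06%) in ConvD against ConvR chow, 3 (4.09%) in ConvR against GF HF/HS and 1 (0.881%) in the interaction. On log2(TPM + 1), which shrinks low genes such as Vldlr, counts were 6 (30.1%) in ConvD against ConvR chow, 2 (6.39%) in ConvR against GF HF/HS, 8 (49.3%) and 1 (5.03%) in the diet comparisons of ConvR and GF mice and 2 (9.63%) in the interaction. In the diet comparisons of ConvR and GF mice the DESeq2 Wald test called 6 (16.2%) and 4 (12.4%). With the length trend removed 2 (4.73%) were called in ConvD against ConvR chow. The diet comparison of GF mice then held 2 (5.33%), Fabp2 and Fabp4. It held 2 (8.69%), Fabp4 and Vldlr, with no normalization factors. With the compared groups fitted alone it held 2 (2.16%), Fabp2 and Vldlr. With the compared groups fitted alone 0 (0%) were called in ConvR against GF chow, 1 (3.76%) in ConvR against GF HF/HS and 3 (6.93%) in the diet comparison of ConvR mice. Without ConvR chow mice 1 and 2 counts were 0 (0.0939%) in ConvR against GF chow, 1 (5.73%) in ConvD against GF chow, 0 (0.047%) in ConvD against ConvR chow and 3 (2.69%) and 5 (9.68%) in the diet comparisons of ConvR and GF mice. Leaving out 1 library at a time gave 0 to 3 in ConvR against GF chow, 0 to 3 in ConvD against ConvR chow, 0 to 2 in ConvR against GF HF/HS, 3 to 5 and 0 to 2 in the diet comparisons of ConvR and GF mice and 0 to 2 in the interaction. The lowest and highest of these counts in ConvR against GF chow were without ConvR chow mouse 2 and without mouse 3, where 46 and 1655 genes were called in all. Genes called in the other comparisons ranged with 1 library left out from 79 to 962 in ConvD against GF chow, from 15 to 1611 in ConvD against ConvR chow, from 16 to 280 in ConvR against GF HF/HS, from 984 to 2142 and from 301 to 1377 in the diet comparisons of ConvR and GF mice and from 0 to 436 in the interaction. The cause of these changes was not tested. With the replicate block, 2 members were called in the diet comparison of GF mice, the call of Cd36 being lost, and no other call of a member changed. Deviations of same-numbered mice of different groups had correlations of -0.23 to 0.246, beside -0.243 to 0.225 for mice with other numbers. No pairing by number was thus detected over all genes, and a weak one could be missed with 3 mice per group.

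Scaling moved the balance of calls over all genes. Of the genes called, 46.4% were higher on HF/HS in ConvR mice, against 84.8% with no normalization factors and 95.6% on TPM. In GF mice the shares were 42.9%, 36.2% and 64.8%, and in ConvR against GF HF/HS 54.5%, 93.5% and 93.8%. On chow they were 54.1%, 40.6% and 17.1% in ConvR against GF, 40.2%, 63.7% and 88.5% in ConvD against GF and 39.9%, 73.5% and 94.6% in ConvD against ConvR. On TPM the median of all genes lay at 0.30 on the log2 scale in the diet comparison of ConvR mice and at 0.21 in ConvD against ConvR. The TPM difference of Slc27a4 in those comparisons, 0.67 and 0.36, is to be read relative to these shifts.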
